A study of Danio rerio with 4 samples.

Results

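The genes described here encode lipoprotein and serum proteins of the kind that a fish embryo makes in its yolk syncytial layer. This layer is the sheet of fused cells between the yolk and the embryo. In which cells of these embryos each gene was expressed was not tested. Of 10 genes listed by symbol (apoa1a, apoa1b, apoa2, apoa4, apoeb, apoc1, ttr, serpina1, serpina1l and rbp4), 8 matched a row of the deposited table of 32538 genes by symbol. A further gene, apoc1, was taken from the row titled apoc1l, whose gene ID now carries the symbol apoc1, which gave 9 genes. apoa1b was not analysed here. The samples were zebrafish embryos at 6 somites, 12 h after fertilization, with 2 libraries of wild-type controls and 2 of mutants with the vgo allele of tbx1, which the labels call null. Each library held polyadenylated RNA of the embryo that remained after the tail tip and a little yolk had been cut off for genotyping. The labels do not say whether a library was a pool of embryos or whether controls and mutants came from the same clutch, so the spread between libraries may be technical.

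Yolk lipid leaves the yolk cell as lipoprotein particles. The yolk syncytial layer packs lipid onto apolipoprotein B with the help of a transfer protein, and smaller apolipoproteins of the A, C and E classes sit on the particle surface, where they activate or block lipases and bind receptors. The same layer also secretes serum proteins, among them carriers of retinol and thyroid hormone and inhibitors of proteases, before the liver forms and takes over this work. Retinol reaches the embryo in part bound to retinol binding protein, and it is the source of retinoic acid.

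Values are the authors' FPKM, fragments per kilobase of transcript scaled to library size, so levels of different genes can be compared per length. The steps between the lowest values give each library's relative depth: against control 1, it was 0.840 for control 2, 0.824 for mutant 1 and 0.725 for mutant 2. The check of the labels, tbx1 itself, had means of 9.11 FPKM in controls and 4.71 FPKM in mutants. Differences were tested with limma on log2(FPKM + 0.5) over the 13448 genes that had a mean of at least 1 FPKM, with Benjamini-Hochberg adjustment over all of them and a threshold of 0.05. With 2 libraries a side, the smallest p of an exact permutation test is 0.333, and each call therefore rests on the spread that limma pools over genes. tbx1 itself was at a log2 difference of -0.88 with an adjusted p of 0.227 in limma, so it did not pass. Not passing therefore does not show that a gene is unchanged. In bulk RNA, fewer cells of a type and less RNA per cell cannot be told apart.

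The label of the group was first set beside markers of the yolk syncytial layer and of the liver. Of 7 listed markers of the yolk syncytial layer, 6 were matched and 5 reached the minimum for testing. The row titled mtp, a name of the lipid transfer protein that loads apolipoprotein B, stood at 45.3 to 56.9 FPKM over the 4 libraries. A second row, MTTP, stood at 28.3 to 31.5 FPKM, and since RefSeq gives mtp as an older name of mttp, which row stands for the gene is uncertain. The sulfate transporter gene slc26a1 stood at 15.7 to 24.1 FPKM, the nuclear receptor gene hnf4a at 7.88 to 10.8 FPKM and the homeobox gene mxtx1 at 7.71 to 10.4 FPKM. The iron exporter gene slc40a1 was the lowest of the 5 tested, at 2.42 to 3.27 FPKM. mxtx2, an early regulator of the layer, was near 0, at 0.0213 to 0.0872 FPKM. Of 8 liver markers, fabp10a was listed at 0 in all 4 libraries, and hpx and gc were at most 0.0546 and 0.184 FPKM. The other 5 passed the minimum: the transferrin gene tfa with a mean of 1118 FPKM, the fibrinogen genes fgg, fgb and fga with 5.82, 2.69 and 1.104 FPKM, and prox1a with 1.12 FPKM.

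The apolipoprotein genes apoa1a, apoeb, apoa2 and apoc1l were among the most abundant RNAs of the embryo. apoa4 ranked lower, from 497 in control 1 to 746 in mutant 2 among genes with loci of at least 300 bp. apoa1a (ENSDARG00000012076, Zv9 chromosome 5 from 39578957 to 39581978) encodes the main protein of high density lipoprotein. Its levels were 3537 and 2878 FPKM in controls 1 and 2 and 3134 and 2505 FPKM in mutants 1 and 2. Control 1 was the highest library and mutant 2 the lowest, and the genotypes overlapped. Among genes with loci of at least 300 bp it ranked 36 in control 1, 59 in control 2, 49 in mutant 1 and 74 in mutant 2. apoeb (ENSDARG00000040295, chromosome 16 from 26200036 to 26202754), which encodes a receptor-binding apolipoprotein E, stood at 2967 and 2850 FPKM in controls 1 and 2, and 2858 and 2513 FPKM in mutants 1 and 2. Mutant 2 was again the lowest library, and the other 3 lay close together.

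apoa2 (ENSDARG00000015866, chromosome 16 from 26218270 to 26219647), a second protein of high density lipoprotein, stood at 2193 and 1673 FPKM in controls 1 and 2, and 2013 and 1750 FPKM in mutants 1 and 2. Here the libraries numbered 1 were high and those numbered 2 low in both genotypes. The apoc1 row, apoc1l (ENSDARG00000092170, chromosome 16 from 26211418 to 26213014), encodes a small apolipoprotein that in mammals inhibits lipid transfer and lipase activity. It stood at 1329 and 1455 FPKM in controls 1 and 2, and 1349 and 1417 FPKM in mutants 1 and 2, a narrower range, with the numbered pairs in the opposite order. apoa4 (ENSDARG00000040298, now apoa4b.1, chromosome 16 from 26153362 to 26162762), an apolipoprotein tied in mammals to lipid absorption, stood at 212 and 172 FPKM in controls 1 and 2, and 196 and 133 FPKM in mutants 1 and 2. Its highest library was 1.59 times its lowest, the widest span among the tested genes of the group.

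The protease inhibitor and carrier genes had lower levels than apoa1a, apoeb, apoa2 and apoc1l. serpina1 (ENSDARG00000090286, chromosome 20 from 10732282 to 10734497), whose mammalian counterpart is the elastase inhibitor alpha-1-antitrypsin, stood at 166 and 165 FPKM in controls 1 and 2, and 161 and 152 FPKM in mutants 1 and 2. Both mutants were below both controls by a small step. Its close copy serpina1l (ENSDARG00000090850, chromosome 20 from 10726061 to 10728283) stood at 134 and 139 FPKM in controls 1 and 2, and 132 and 124 FPKM in mutants 1 and 2, and again the mutants lay below the controls. The copies lie 3999 bp apart, and the sources used here do not say how reads that match both were shared between them, so their separate levels are uncertain. rbp4 (ENSDARG00000077505, chromosome 12 from 5737655 to 5742066), the plasma carrier of retinol, stood at 50.2 and 32.4 FPKM in controls 1 and 2, and 49.7 and 36.6 FPKM in mutants 1 and 2. Its libraries numbered 1 agreed within 0.57 FPKM, and those numbered 2 were both far lower. The rbp4 locus lies inside the wide locus given for cep55l, which stood at 7.46 to 9.06 FPKM.

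ttr (ENSDARG00000037191, chromosome 20 from 6193300 to 6208810), the carrier of thyroid hormone that binds retinol binding protein in mammalian plasma, was the exception. It was listed at 0.259 and 0.349 FPKM in controls 1 and 2, and 0.277 and 0.272 FPKM in mutants 1 and 2, below the minimum for testing. The authors' lower 95% bound was 0 in mutant 2, and their interval reached 77.6% to 100% of the value to either side. Each value is therefore uncertain at this depth, and whether ttr differed between groups was not tested. The ratio of the mean of rbp4 to that of ttr was 146.

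**Figure D1:**
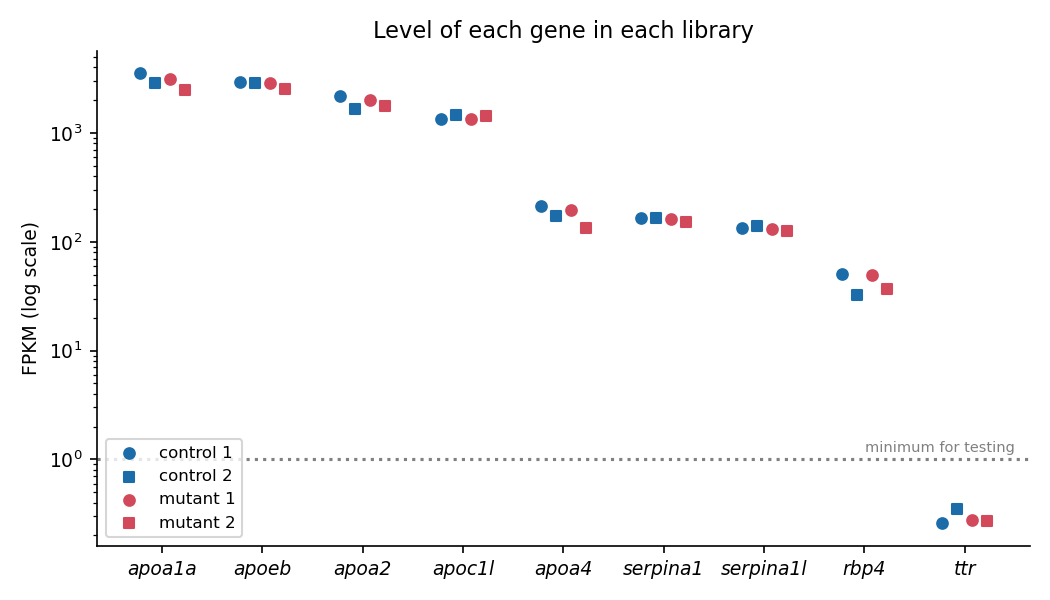
FPKM of the 9 genes in each of the 4 libraries on a log axis, with genes in order of their mean, controls in blue, mutants in red, circles for number 1 and squares for number 2. The genes span from apoa1a, at 2505 to 3537 FPKM, to ttr, at 0.259 to 0.349 FPKM, which alone lies under the dotted minimum of 1 FPKM.

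Ordered by mean, the genes ran apoa1a, apoeb, apoa2, apoc1l, apoa4, serpina1, serpina1l, rbp4 and ttr, as the plot of levels by library shows. The order of apoa1a over apoeb held in 3 of 4 libraries and their ranges overlapped, and the same was true of apoa4 over serpina1, so these neighbours did not differ beyond their spread. The other neighbours kept their order in 4 of 4 libraries without overlap. Together the 9 genes made up 0.805% and 0.654% of all FPKM in controls and 0.742% and 0.657% in the mutants. The means were 0.729 ± 0.107% and 0.6995 ± 0.0595% (SD, n = 2 each). The genotypes overlapped, and the sign of the difference turned without control 1 or without mutant 2. Of the FPKM of loci of at least 300 bp, the 9 genes held 1.30%, 1.12%, 1.22% and 1.07% in control 1, control 2, mutant 1 and mutant 2. The apolipoproteins carried nearly all of this, at 1.25%, 1.08%, 1.18% and 1.04% in the same libraries. On the same base the 2 inhibitors held 0.0344% to 0.0367% and the 2 carriers 0.00393% to 0.00618%.

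The authors' 95% intervals were narrow for the tested genes of the group, though wide for ttr, and could not be read at face value for the most abundant ones. For apoa1a, apoeb and apoa2, 4 of 4 deposited values lay below their own interval. In control 1, for example, the apoa1a value of 3537 FPKM came with an interval from 3739 to 3787 FPKM. For apoc1l 2 of 4 values lay inside, and for apoa4, serpina1, serpina1l, rbp4 and ttr 4 of 4 did. Over all genes tested, 26% of values lay outside their own interval. The rbp4 interval reached 5.58% to 7.04% of its value to either side, and its libraries differed by up to 1.55-fold.

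A shared position was the clearest feature of the apolipoprotein genes. apoa4, apoeb, apoc1l and apoa2 lie in a stretch of 77.1 kb on chromosome 16, from 26153362 to 26230454 in the Zv9 assembly, which holds 9 rows of the table up to the end of apoc2. The means in this stretch ran from 0.0543 to 2797 FPKM. apoc2, which encodes the cofactor of lipoprotein lipase, stood at 247 and 262 FPKM in controls 1 and 2, and 229 and 236 FPKM in mutants 1 and 2. zgc:194131, now apoa4b.2, had a mean of 92.4 FPKM, si:dkey-7f3.15, now apoa4b.3, of 4.05 FPKM, and si:dkey-7f3.14 of 2.33 FPKM. The locus of si:dkey-7f3.15 lies inside that of apoa4, so their reads cannot be told apart with certainty. zgc:193682, now apoc4, lies between apoc1l and apoa2 and was listed at 0 in control 1 and at 0.105 FPKM or less in the other libraries.

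**Figure D2:**
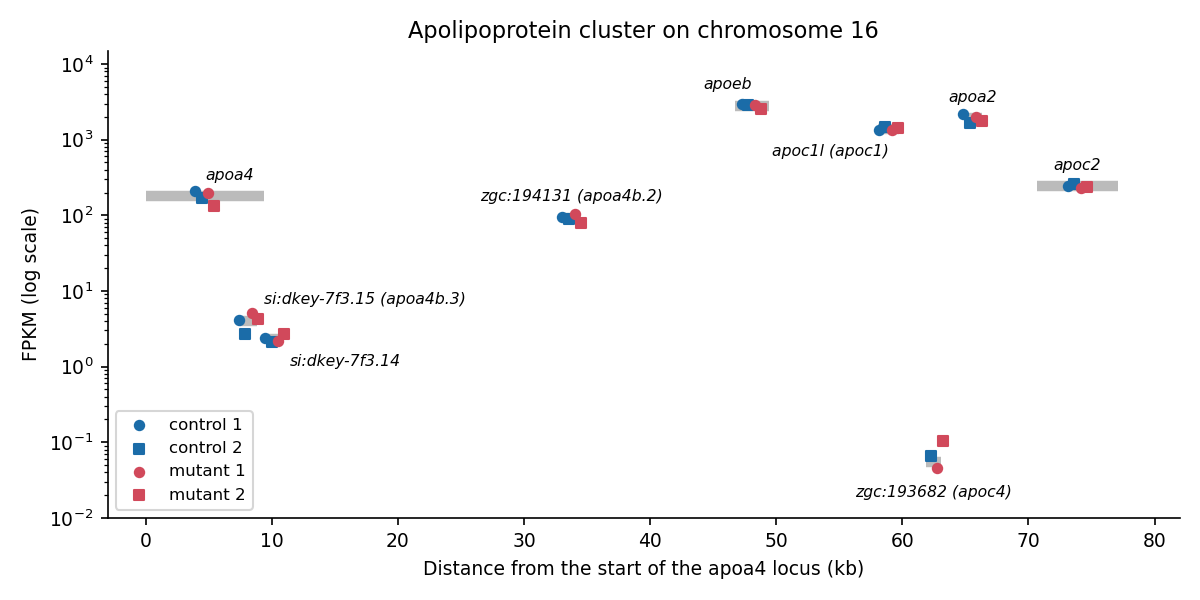
FPKM on a log axis against distance in kb from the start of the apoa4 locus on chromosome 16, with grey bars for the extent and mean of each of 9 loci and points for the 4 libraries (spread sideways for legibility, points at 0 not drawn). apoeb, apoc1l and apoa2 are at or above 1329 FPKM in every library, while zgc:193682 between the last 2 of these stands at a mean of 0.0543 FPKM.

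The other genes of the group lie apart from this stretch. The nearest neighbour of apoa1a, RNF214, begins 278 bp away and stood at 16.9 to 19.1 FPKM, and pafah1b2 on the other side, at a distance of 4990 bp, stood at 2.66 to 3.18 FPKM. Farther off, mpzl2, 14737 bp away, was at a log2 difference of -0.25 between genotypes (unadjusted p = 0.0279 in limma). It did not pass after adjustment. RNF214, pafah1b2 and si:dkey-111e8.1 were at 0.003, 0.02 and 0.03. apoa1a shares chromosome 5 with tbx1, whose locus runs from 16906409 to 16919398. Neighbours within 25 kb of ttr, b4galt6 and pum2, stood at 17.8 to 21.1 and 6.07 to 8.11 FPKM, far above ttr itself.

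The first comparison, the one named in the series' design, set mutants against controls. None of the 8 tested genes of the group passed an adjusted p of 0.05 in limma, where 0.0669% of all tested genes did, and 0 of 8 had an unadjusted p under 0.05, against 1.99% of all genes. Their log2 differences were small: 7 of 8 were below 0 in the mutants, as were 42.8% of all genes tested, though only 6 were after quantile normalization and 5 after either rescaling to a common total. The median of the 8 was -0.09, beside 0.02 over all genes tested, and it was -0.03 without mutant 2, -0.19 without control 2, -0.14 without mutant 1 and -0.03 after rescaling over all usable genes. Since the genes were chosen with earlier results known, this lean is a description.

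apoa4 had the widest interval among the apolipoproteins, and the sign of its difference turned without mutant 2, at 0.04, against -0.52 without mutant 1. Its means were 192 ± 28.5 FPKM in controls and 164.5 ± 44.4 FPKM in mutants (n = 2 each, SD), for a log2 difference of -0.24 (SE 0.216, 95% interval -0.81 to 0.33, adjusted p = 1.0 in limma). For apoa1a the means were 3207 ± 466 and 2819 ± 445 FPKM, a log2 difference of -0.19 (SE 0.165, 95% interval -0.62 to 0.25, adjusted p = 1.0 in limma). The apoa1a difference was -0.03 without mutant 2, -0.04 without control 1, -0.34 without control 2 and -0.35 without mutant 1. apoeb was at -0.12 (95% interval -0.39 to 0.15), -0.02 without mutant 2 and -0.21 without mutant 1, apoa2 at -0.03 (-0.46 to 0.40) and apoc1l at -0.01 (-0.24 to 0.22). With the replicate number as a block, the unadjusted p was 0.0383 for apoa4 and 0.0447 for apoa1a, each with an adjusted p of 0.920 in limma.

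The inhibitor genes had the narrowest intervals. serpina1 went from 165.8 ± 0.619 FPKM in controls to 156.5 ± 6.32 FPKM in the mutants (n = 2 each, SD), for a log2 difference of -0.08 (SE 0.0656, 95% interval -0.26 to 0.09). serpina1l went from 136 ± 3.45 to 128 ± 5.24 FPKM, a log2 difference of -0.09 (SE 0.0677, 95% interval -0.27 to 0.09). These were the only 2 of the 8 genes whose mutant values lay entirely to one side of the control values, where 24.8% of all tested genes did so and 9.14% did so with the mutants below. The ratio of serpina1 to serpina1l was 1.24 and 1.19 in the controls and 1.22 in both mutants. rbp4 was the only gene with a higher mean in the mutants, at 43.1 ± 9.26 against 41.3 ± 12.6 FPKM, a log2 difference of 0.08 (SE 0.257, 95% interval -0.60 to 0.75) that changed sign without control 2 or without mutant 1.

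**Figure D3:**
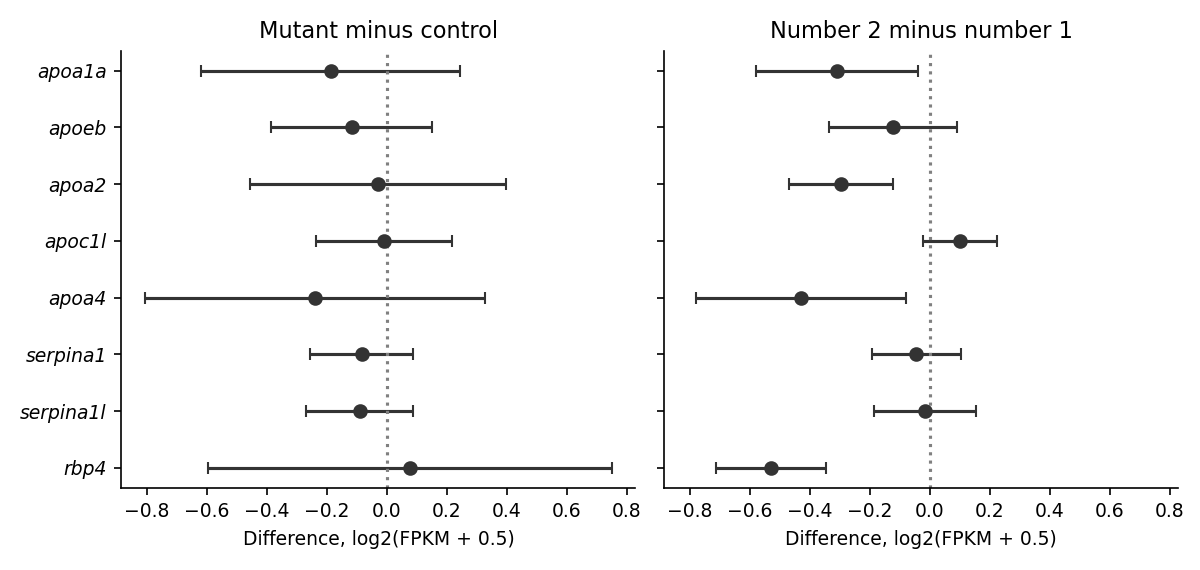
Difference on the log2(FPKM + 0.5) scale with limma's 95% interval for the 8 tested genes, mutant minus control on the left and number 2 minus number 1 on the right. Every interval on the left crosses 0, and on the right those of apoa1a, apoa2, apoa4 and rbp4 lie below 0. On the left apoa2 and apoc1l turn sign after rescaling to a common total and apoc1l after quantile normalization.

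The libraries were next compared by the replicate number in their labels, number 2 (control 2 and mutant 2) against number 1, because several levels above differed with it. No label says what the number stands for, so this describes the libraries only. The comparison was chosen because these genes' own values differed by number. Their counts beside those of all genes are therefore a description and no evidence of a difference particular to the group. None of the 8 genes passed an adjusted p of 0.05 in limma, where 0.0521% of all genes did, but 4 of 8 had an unadjusted p under 0.05, all of them lower in number 2. Of all genes tested, 19.4% had such a p, and 9.47% were lower with it. In the group, 3 of 8 had such a p after median-ratio rescaling and 5 of 8 after rescaling over all usable genes. The values of the 2 numbers did not overlap for 6 of 8 genes, against 52.6% of all genes, with number 2 lower for 5 of 8, against 28.7%. By mean log2 value 7 of 8 were lower in number 2, against 54.6%, though only 5 of 8 were without mutant 2. The median of the 8 was -0.21, beside -0.02 over all genes tested.

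rbp4 had the lowest p of the group in this comparison. Its mean was 49.9 ± 0.402 FPKM in number 1 and 34.5 ± 2.92 FPKM in number 2 (n = 2 each, SD), for a log2 difference of -0.53 (SE 0.0691, 95% interval -0.71 to -0.35, adjusted p = 0.142 in limma). It passed when loci under 300 bp were left out (adjusted p = 0.0432 in limma) and with robust empirical Bayes (adjusted p = 0.0352 in limma), and its adjusted p ranged up to 0.485 over the settings tried. In all, 70 and 176 genes passed under those settings, against 7 in the main fit. Within the controls the rbp4 step was -0.62 and within the mutants -0.44. apoa4 was at -0.43 (SE 0.132, adjusted p = 0.210 in limma), -0.30 within the controls and -0.56 within the mutants. apoa1a was at -0.31 (SE 0.102, adjusted p = 0.220 in limma), with -0.30 and -0.32 within the genotypes, and apoa2 at -0.30 (SE 0.0658, adjusted p = 0.160 in limma), with -0.39 and -0.20.

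The rest of the group had smaller differences or the opposite sign. apoeb was at -0.12 (95% interval -0.34 to 0.09), serpina1 at -0.04 (-0.19 to 0.10) and serpina1l at -0.02 (-0.19 to 0.15), and the signs of the 2 inhibitor genes turned without mutant 2. apoc1l was at 0.10 (-0.02 to 0.22), with higher values in number 2 in both genotypes, though at 0 after quantile normalization. Of the other genes in the chromosome 16 stretch, zgc:194131 was at -0.26 (adjusted p = 0.237 in limma) and apoc2 at 0.07 (95% interval -0.12 to 0.25). There si:dkey-7f3.15 was at -0.40 (-0.99 to 0.19) and si:dkey-7f3.14 at 0.05 (-0.33 to 0.43). Differences between these loci were not tested. The ratio of apoa2 to apoc1l within a library, which no rescaling of libraries changes, was 1.65 and 1.49 in control 1 and mutant 1 and 1.15 and 1.23 in control 2 and mutant 2. This ratio and the others given here, and zgc:194131, were chosen after their values were seen.

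No marker of the yolk syncytial layer passed an adjusted p of 0.05 by number. Of the 5 tested, 4 had higher values in number 2, where 45.4% of all genes did, with slc26a1 at 0.51 (adjusted p = 0.142 in limma), hnf4a at 0.39, mtp at 0.28 (MTTP at 0.13) and mxtx1 at 0.27, and slc40a1, an iron exporter gene, was at -0.29. slc26a1 passed when loci under 300 bp were left out (adjusted p = 0.0498 in limma) and with robust empirical Bayes (adjusted p = 0.0424 in limma), where 70 and 176 genes passed in all. The summed level of the 6 matched markers was 85.3 and 79.9 FPKM in control 1 and mutant 1 and 104 and 103 FPKM in control 2 and mutant 2. apobl, now apobb.1, encodes an apolipoprotein B. It stood at 220 and 208 FPKM in number 1 and 247 and 244 FPKM in number 2, a log2 difference of 0.20. Apolipoprotein B rows went both ways by number. APOB (1 of 3), with a mean of 21.4 FPKM, was at 0.20, and APOB (3 of 3), now apobb.2, with a mean of 3.90 FPKM, was at -0.37. The ratio of apoa1a to apobl was 16.1 and 15.0 in number 1 and 11.6 and 10.3 in number 2. All 8 marker lists were set against the number, and 0 of their genes passed an adjusted p of 0.05 in limma. Markers of tail tissue were higher in number 2 for 7 of 8 tested genes, 6 of them with an unadjusted p under 0.05, against 9.90% of all genes, and their summed level was 169 and 162 FPKM in number 1 and 255 and 227 FPKM in number 2. Markers of the enveloping layer and periderm were lower in number 2 for 9 of 9, 5 with such a p, with a median of -0.18 and a summed level of 9425 and 9171 FPKM in number 1 and 8142 and 8224 FPKM in number 2. Mean log2 values were also lower in number 2 for 6 of 7 markers of blood and vessel progenitors and 3 of 4 of the hatching gland. In each of these lists, 2 had an unadjusted limma p under 0.05, against 9.47% of all genes. In the blood list, hbae3 and gata1a were at only -0.0026 and -0.0101. For maternal and germ line RNA 1 of 3 was lower, without such a p. Mean log2 values were higher for 5 of 5 of definitive endoderm, 2 with such a p. Of these, cxcr4a, foxa3 and foxa1 were slightly lower in control 2 than in control 1. In the liver list 4 of 5 tested genes had lower mean log2 values in number 2, 1 with such a p, and tfa was higher. The liver marker fabp10a was at 0 in every library, and from which tissue the other genes of that list came was not tested. Tail tip and yolk were taken from each embryo for genotyping, and the part of this, or of the other tissues, in the differences of the group was not tested.

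**Figure D4:**
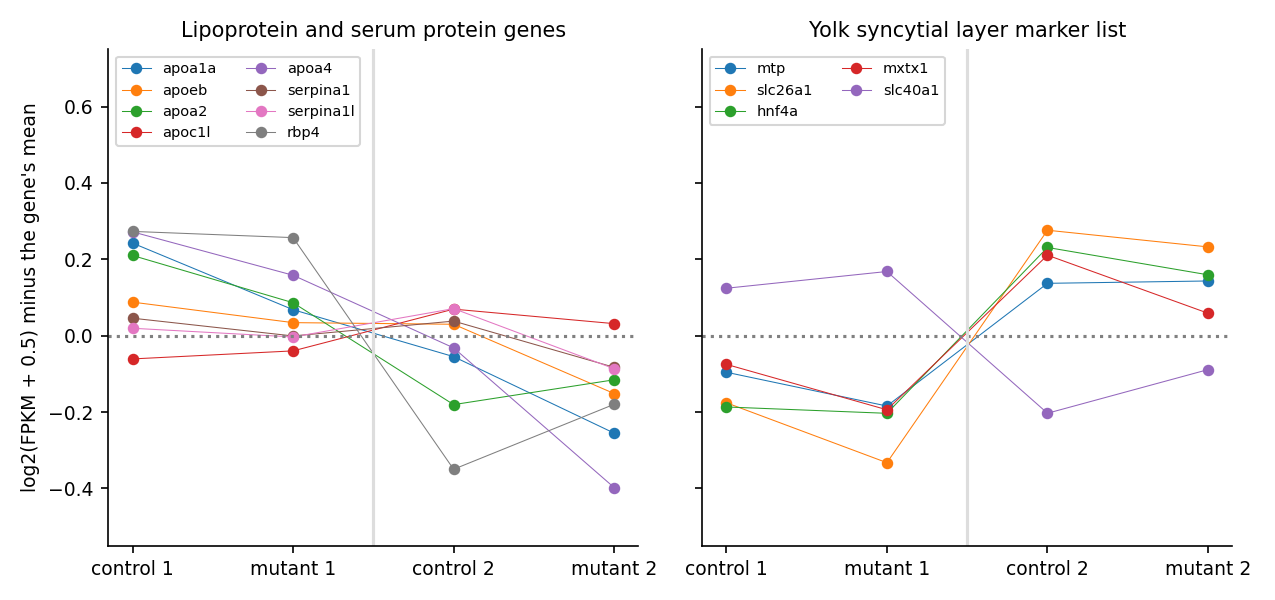
log2(FPKM + 0.5) minus each gene's mean in the 4 libraries, for the 8 tested genes of the group on the left and the 5 tested yolk syncytial layer markers on the right, with number 1 left of the grey line in each panel; thin lines only join the values of 1 gene. In the group, rbp4, apoa4, apoa1a and apoa2 are lower in number 2 and apoeb is lower by less, while apoc1l is higher and serpina1 and serpina1l differ little. Among the markers, mtp, slc26a1, hnf4a and mxtx1 are higher in number 2 and slc40a1 is lower.

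A second pair of apolipoprotein genes, on chromosome 19, showed wider steps than any gene of the group. apoea (ENSDARG00000086370), the other copy of the apolipoprotein E gene, stood at 4.41 and 5.21 FPKM in control 1 and mutant 1 and at 1.06 and 1.94 FPKM in control 2 and mutant 2. Its log2 difference by number was -1.44 (SE 0.244, adjusted p = 0.143 in limma). zgc:112992, listed as apoa4a in RefSeq, lies 4323 bp from apoea and stood at 11.2 and 12.6 FPKM in number 1 and 4.70 and 6.38 FPKM in number 2, a log2 difference of -1.04 (adjusted p = 0.142 in limma). It passed when loci under 300 bp were left out (adjusted p = 0.0492 in limma) and with robust empirical Bayes (adjusted p = 0.0475 in limma), where 70 and 176 genes passed in all. APOM, which encodes an apolipoprotein of the lipocalin family, was at -0.47 (adjusted p = 0.159 in limma). These 3 genes were picked after their values were seen.

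Other genes of the pathway were taken from 6 lists of related function. In mutants against controls, 0 of the tested members of any list passed an adjusted p of 0.05 in limma. Among 22 tested genes of lipoprotein assembly and other apolipoproteins, 0 had an unadjusted p under 0.05 and the median was -0.04. The most abundant were pla2g12b, which encodes a secreted phospholipase relative needed for lipoprotein export, with a mean of 436 FPKM and a log2 difference of -0.13, then apoc2 at -0.13, apobl at -0.05 and p4hb, a subunit of the transfer protein, at 0.07. Those of lowest p were dgat1b, an enzyme of triglyceride synthesis, at -0.30 (adjusted p = 1.0 in limma), si:dkey-7f3.15 at 0.42, apoc2 and pla2g12b. The sign of apobl turned when control 2 or mutant 1 was left out and after rescaling to a common total over all usable genes.

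Receptor and remodelling genes came next. Of 19 tested, 0 had an unadjusted p under 0.05, and the median was 0.00. npc2, which moves cholesterol out of lysosomes, had a mean of 836 FPKM and a log2 difference of -0.07. abca1b, a lipid exporter gene, was at -0.03, npc1 at -0.11 and the lipoprotein receptor gene scarb1 at 0.05, while pltp, a phospholipid transfer protein gene, was at -0.14, the cholesterol-esterifying lcat at 0.14 and SORL1 at 0.15. The sign of abca1b turned after either rescaling to a common total.

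The list of other serum proteins also holds fatty acid binding protein genes, and its 4 most abundant RNAs all exceeded apoa4. fabp1b.1, a fatty acid binding protein gene, had a mean of 2593 FPKM, the protease inhibitor gene fetub 1720 FPKM, fabp2 1219 FPKM and the transferrin gene tfa 1118 FPKM, and their log2 differences between genotypes were -0.09, -0.10, -0.02 and -0.08. That of fabp2 turned sign after quantile normalization and either rescaling to a common total. Of 30 tested genes of this list, 22 were below 0, as were 42.8% of all genes tested, and the median was -0.06. Of the 30, 2 had an unadjusted p under 0.05 in limma, both lower in the mutants. Among all genes, 0.907% were lower and 1.08% higher with such a p. The 2 of this list were c9, a complement gene on chromosome 5, at 1.97 and 1.15 FPKM in controls 1 and 2, and 0.359 and 0.674 FPKM in mutants 1 and 2, and agt, the angiotensin precursor gene, with means of 1.86 FPKM in controls and 1.26 FPKM in mutants. Their log2 differences were -1.01 and -0.42, each with an adjusted p of 1.0 in limma. kng1, a kininogen gene, was at -0.10.

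Retinol genes included the only list member near the threshold. bcdo2l, of the carotenoid-cleaving oxygenase family and on chromosome 5, stood at 15.7 and 14.8 FPKM in controls 1 and 2, and 5.92 and 6.36 FPKM in mutants 1 and 2, a log2 difference of -1.25 (adjusted p = 0.0588 in limma), and it passed under 4 of 16 alternative settings. Of 17 tested genes, 3 had an unadjusted p under 0.05 in limma, all lower in the mutants, where 0.907% of all genes were lower with such a p. These were bcdo2l, the cellular retinol binding protein gene rbp2a at -0.31 and zgc:162946, now stra6l, at -0.31. The list was chosen with earlier results known, so the count is a description. rbp1b was at -0.43 with an unadjusted limma p of 0.0507. The list median was -0.08, and 12 of 17 were below 0, as were 42.8% of all genes tested. The most abundant were dhrs3b (mean 63.4 FPKM, log2 -0.11) and rdh10b (58.6 FPKM, -0.11), which act on retinal and retinol, the retinoic acid binding protein gene crabp2b (53.8 FPKM, -0.08) and rbp4l, the relative of rbp4 (30.8 FPKM, -0.06). rbp4l stood at 36.4 and 30.7 FPKM in number 1 and 26.8 and 29.3 FPKM in number 2.

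Regulators and yolk breakdown genes gave no unadjusted p under 0.05 between genotypes in 19 and 17 tested genes, with medians of -0.04 and -0.03. Among the regulators gata6 had a mean of 65.2 FPKM and a log2 difference of -0.08, gata5 61.1 FPKM and -0.01, cebpa 48.8 FPKM and -0.09 and cebpb 40.2 FPKM and -0.04, all of them transcription factor genes, with the retinoid receptor gene rxrbb at 0.17 and foxa1 at -0.14. The signs of gata5 and cebpb turned after rescaling to a common total over all usable genes, and that of gata5 also when the group was left out of the total. Among lysosomal proteases ctsba had a mean of 849 FPKM and a log2 difference of -0.20, ctsc 789 FPKM and -0.12, ctsl1a 433 FPKM and -0.07 and ctsd 165 FPKM and -0.03, the last of which turned sign after either rescaling to a common total. ctsl.1 was at 0.18 and the zinc exporter gene slc30a1a at -0.16.

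By number, the lists divided in both directions. Of the 22 genes of lipoprotein assembly, 6 had an unadjusted p under 0.05 and were lower in number 2, and 5 were higher, against 9.47% and 9.90% of all genes. In the serum protein list these counts were 5 lower and 4 higher of 30, in the receptor list 5 and 2 of 19, in the retinol list 0 and 3 of 17, in the regulator list 1 and 5 of 19 and in the yolk breakdown list 3 and 4 of 17. The list medians lay between -0.07 and 0.04, beside the median of -0.21 for the 8 genes of the group. Whether any list differed from the group was not tested.

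**Figure D5:**
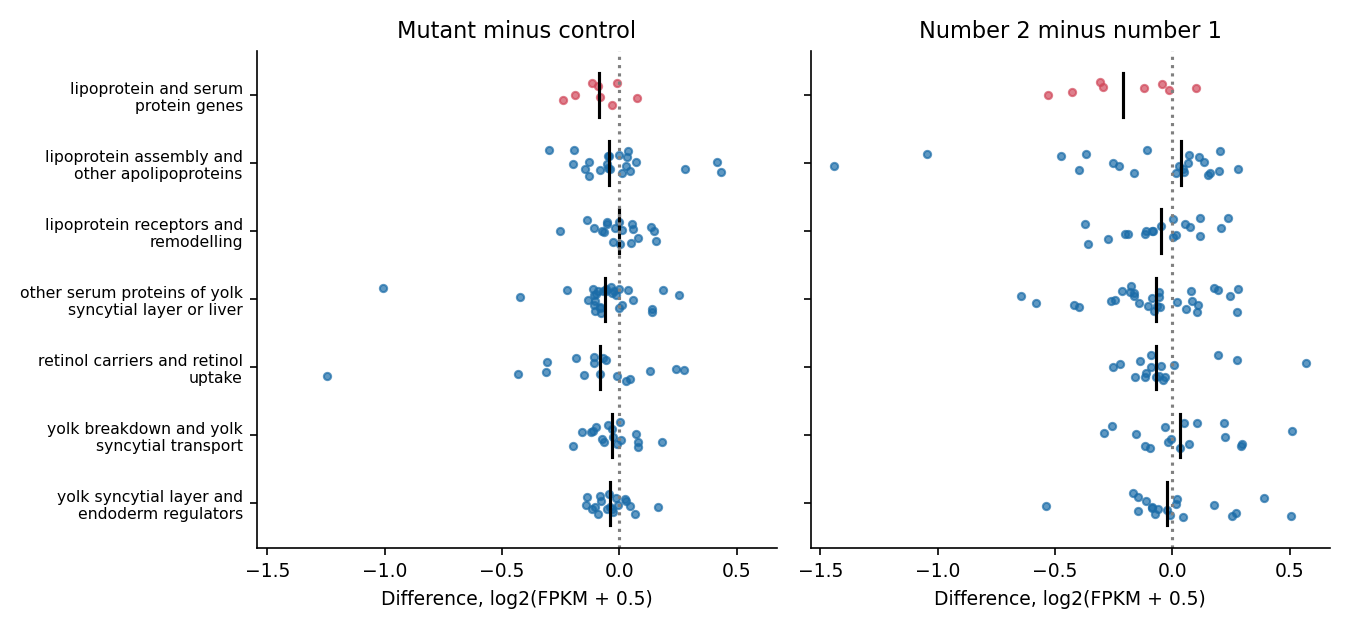
Difference on the log2(FPKM + 0.5) scale for each tested gene, mutant minus control on the left and number 2 minus number 1 on the right, for the group (red, 8 genes) and the 6 lists (blue), with a black bar at each median. Most points on the left lie near 0, bcdo2l and c9 being the 2 farthest to the left, and on the right apoea and zgc:112992 lie farthest to the left.

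Genes whose pattern over the 4 libraries was most like the mean of the 8 tested genes were sought among 4063 other genes with a mean of at least 20 FPKM. The measure was the root-mean-square distance between log2 values centred on each gene's mean. The nearest 5 were rpl13a at 0.00644, lamb1a at 0.0148, rpl7 at 0.0192, MALSU1 at 0.0195 and rpl11 at 0.01997. Of these, rpl13a, rpl7 and rpl11 encode ribosomal proteins and lamb1a a laminin chain. The genes of the group were themselves farther from their mean, from 0.0505 for apoeb to 0.189 for rbp4, and 141 of the other genes were as near as apoeb or nearer. For the rest of the group this count ran from 441 for apoa1a to 3172 for rbp4, with 2381 for apoa4 and 2617 for apoc1l. With 4 libraries such likeness is a description.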

How the data were processed

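The deposited FPKM values, with 95% bounds and a status flag, came in a single table covering all 4 libraries, where column titles read RPKM but a stray final line reads FPKM, per the file headers. The submitters' processing notes name TopHat2 2.0.8, Cufflinks 2.1.1, Cuffdiff 2.0.2 and the Zv9 (danRer7) build; the sources used here do not say which of them made the values. Loci are printed as deposited. Of 32538 genes, 138 without an OK status in all 4 libraries were left out, and 18952 had a mean below 1 FPKM. The scale was log2(FPKM + 0.5) with no further normalization, which understates changes of low genes, and fits used limma 3.58.1 in R 4.3.3 (mean-variance trend, two-sided, 4.66 degrees of freedom for genotype and 4.54 for number). The fit was tested on simulated data. Figures used matplotlib 3.10.9.

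The genes of the group, the 6 gene lists and the 8 marker lists were chosen with earlier results of these data known. Symbols were matched by the table, then by the current symbol of the gene ID, then by older names in RefSeq. Named were all genes of the group and, from each list, up to 4 of highest mean and up to 4 of lowest p between genotypes; any other gene with a value, marker genes and neighbouring loci included, was picked after values were seen. Alternatives were other pseudocounts, minimums and scalings, loci under 300 bp left out, the replicate number as a block, no trend, robust empirical Bayes and each library left out.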

Additional observations from a re-analysis of the deposited data

How the results depend on the processing

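No gene of the group passed between genotypes under any of 16 alternative settings, and by number rbp4 alone did, under 2. Between genotypes, 9 genes of all those tested passed, all at loci under 300 bp; this became 16 with robust empirical Bayes and 28 to 39 with 1 library left out. By number, 7 passed, which became 70 without loci under 300 bp, 176 with robust empirical Bayes and 32 to 39 with 1 library left out; the cause was not tested. With loci under 300 bp left out, 7 genes passed between genotypes, 1 higher and 6 lower in the mutants. bcdo2l was among these (adjusted p = 0.0397 in limma). The 7 genes that passed by number with the short loci kept were all at loci under 300 bp. With the replicate number as a block, the counts were 9 between genotypes and 6 by number, and no call on a gene of the group changed. Deviations of same-numbered libraries from their group means correlated at 0.347 across genes, but only 2 pairs exist and no label gives the number a meaning.

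Between genotypes the sign turned after rescaling each library to a common total over all usable genes for apoa2 (0.0238), apoc1l (0.0447), apobl (0.0039), abca1b (0.0244), fabp2 (0.0298), gata5 (0.0406), cebpb (0.0121) and ctsd (0.0221). With the group and loci under 300 bp left out of that total it turned for apoa2 (0.0048), apoc1l (0.0257), abca1b (0.0057), fabp2 (0.0109), gata5 (0.0219) and ctsd (0.0032), and after quantile normalization for apoc1l (0.0264) and fabp2 (0.0402). With 1 library left out, log2 ranges that crossed 0 were -0.0701 to 0.0137 for abca1b, -0.225 to 0.166 for apoa2, -0.518 to 0.0382 for apoa4, -0.163 to 0.065 for apobl, -0.0737 to 0.0567 for apoc1l, -0.161 to 0.0803 for cebpb, -0.28 to 0.112 for crabp2b, -0.277 to 0.0351 for ctsc, -0.114 to 0.0519 for ctsd, -0.227 to 0.0097 for dhrs3b, -0.16 to 0.113 for fabp2, -0.0569 to 0.0328 for gata5, -0.213 to 0.0656 for npc2, -0.234 to 0.388 for rbp4, -0.275 to 0.163 for rbp4l and -0.0541 to 0.162 for scarb1. By number they were -0.0095 to 0.141 for apoc2, -0.105 to 0.0157 for serpina1 and -0.0946 to 0.0629 for serpina1l, and after quantile normalization the apoc1l difference by number was 0, an exact tie. By number the range was -0.61 to -0.25 for apoa4 and -0.21 to -0.03 for apoeb, and the median of the group was -0.12 without mutant 2.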
